A study of Neurospora crassa with 10 samples.

Results

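Silent and active chromatin in Neurospora crassa, a filamentous fungus with a small haploid genome, is marked and read by a short list of proteins, and 5 of their genes were followed here through the deposited gene annotation. They were chosen by gene identifier, for what their products do, and are dim-5 (NCU04402), hpo (NCU04017), dim-2 (NCU02247), set-7 (NCU07496) and set-2 (NCU00269), which are 5 of the 9730 protein-coding genes and of the 9866 genes of any kind. The study prepared 10 in situ Hi-C datasets from germinated conidia of the wild type strains N150 and N3752, both of the 74-OR23-1VA background, with DpnII, with MseI or with both restriction enzymes. Of the datasets, 2 are merges of others, and the libraries cut with 1 enzyme were amplified with 8 PCR cycles or, for DpnII libraries of N150 alone, also with 15 or 23. Contacts from the MseI libraries guided a corrected assembly, nc14, and the annotation of nc14 is the file described here. It holds positions and no value per library, strain or enzyme, so no value below has a replicate error, no test was run, and ranks among genes are descriptions.

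In constitutive heterochromatin, DIM-5 places methyl groups on lysine 9 of histone H3 (H3K9me3), Heterochromatin Protein-1, the product of hpo, binds that mark, and DIM-2, a DNA methyltransferase, methylates cytosines of the same AT-rich regions. Facultative heterochromatin instead carries methylation of lysine 27 of histone H3, placed by SET-7, the catalytic subunit of the Polycomb complex. SET-2 acts in euchromatin, where it methylates lysine 36 of histone H3 in transcribed genes. The targets of DIM-5, HP1 and DIM-2 are gene-poor, so the distance of the genes themselves from gene-poor sequence was measured.

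Each gene lay on a different chromosome (Linkage Group, LG). On nc14, dim-5 ran from 3480589 to 3482273 of LG IV (minus strand), hpo from 2175752 to 2178135 of LG VI (plus strand) and dim-2 from 3189797 to 3195483 of LG VII (plus strand). The gene set-7 ran from 408524 to 415263 of LG I (minus strand), and set-2 from 3236473 to 3240984 of LG III (plus strand). Each symbol is that of the RefSeq table of the older assembly NC12, where the same NCU number carries it. The gene nearest to a chromosome end was set-7, which lay 407373 bp inside the outermost annotated gene boundary of LG I, and 85.8% of protein-coding genes lay farther from such an end. The other 4 genes were between about 1040030 bp (dim-2) and about 2469040 bp (dim-5) from one.

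All 5 genes lay farther from long gene-free intervals, taken at a minimum of 10 kb, than most protein-coding genes. A gene-free interval was taken as a stretch of at least 10 kb between neighboring genes with no annotated gene, and nc14 had 214 of them, with a median length of 19213 bp. The nearest one was 344 kb from set-2, 260 kb from dim-5, 209 kb from dim-2, 126 kb from hpo and 117 kb from set-7. The median distance over protein-coding genes was 56678 bp, which each of the 5 exceeded. A larger distance was found for 2.39% of protein-coding genes in the case of set-2, for 5.95% in that of dim-5, 9.67% for dim-2, 22.6% for hpo and 25.2% for set-7. None of the 5 lay within 10 kb of such an interval, as 13.9% of protein-coding genes did. The minimum length matters for set-7. With intervals of at least 5 kb it was closer to one than most genes were (15966 bp, with 43.4% of genes nearer), and with 20 kb 47.1% of genes were nearer, whereas the other 4 genes stayed beyond the distance of at least 66.4% of genes under both minimums.

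**Figure D1:**
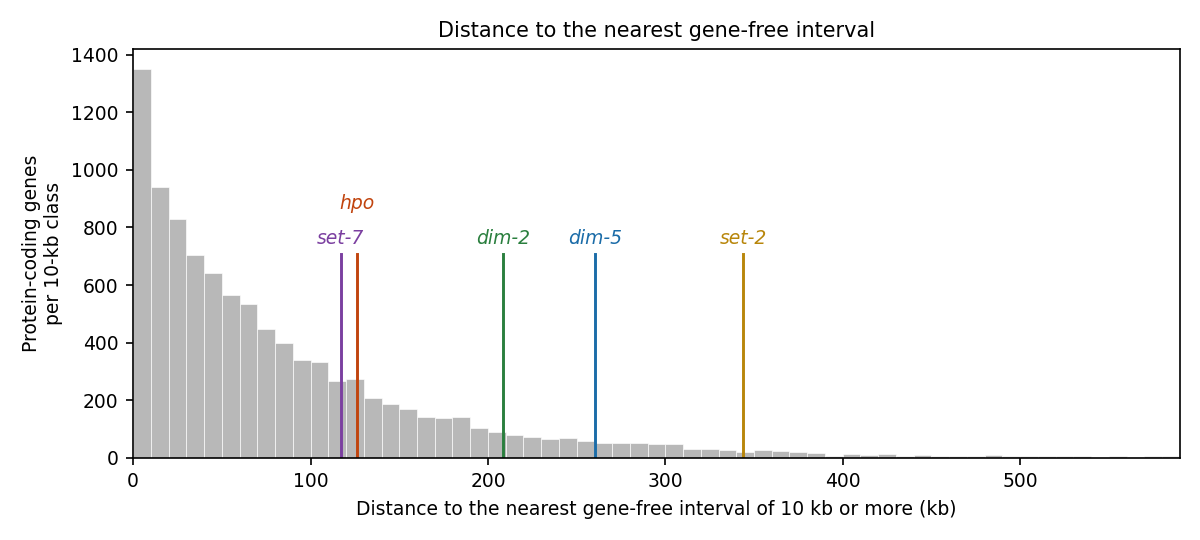
Distance to the nearest gene-free interval of at least 10 kb (x axis, kb) for all 9730 protein-coding genes, counted in 10-kb classes (bars, y axis), with a colored line at the value of each of the 5 genes. The lines stand between 117 kb (set-7) and 344 kb (set-2), right of the tallest bars, which hold the genes nearest to such intervals.

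The nearest intervals differed in length and in the number of genes before them. For dim-5 the nearest was to the right, from 3742771 to 3772910 of LG IV (30140 bp, between NCU04334 and NCU07974), with 73 genes in between. For hpo it was to the left, from 2035274 to 2049734 of LG VI (14461 bp, between NCU04058 and NCU04054), with 36 genes in between. The RefSeq table places 1 tRNA gene between the genes that flank this interval, so it was free only of the genes annotated in nc14. For dim-2 it was to the right, from 3403999 to 3440338 of LG VII (36340 bp, between NCU02188 and NCU08123), 60 genes away. For set-7 it was to the left, from 265389 to 291632 of LG I (26244 bp, between NCU08103 and NCU08105), 32 genes away. For set-2 it was a short one to the left, from 2881092 to 2892498 of LG III (11407 bp, between NCU00170 and NCU00171), beyond 99 genes. By length from the longest, the interval nearest to set-2 ranked 195 of 214 and the one nearest to dim-2 ranked 38. NCU04054 is Bml, the beta-tubulin gene, and the RefSeq table gives no symbol for the other 9 flanking genes.

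Between neighboring intervals of at least 10 kb, each gene sat in a long run of genes with no such interval inside it. There were 207 of these runs, with a median length of 96.0 kb and a median of 29 genes. Shorter gene-free stretches could lie inside a run. The stretch of at least 5 kb nearest to each of the 5 genes lay inside its run. These stretches measured between 6049 bp (set-7) and 7397 bp (dim-5). The run that held set-2 spanned 1179 kb of LG III with 325 genes and was the longest of all 207. That of dim-5 (656 kb, 205 genes) and that of hpo (625 kb, 172 genes) ranked 5 and 6 and were the longest of LG IV and LG VI. That of dim-2 (472 kb, 138 genes) ranked 12, and that of set-7 (375 kb, 98 genes) ranked 22. Long runs hold many genes, so such ranks are more common among genes than among runs. Of all annotated genes, 34.1% lay in a run longer than that of set-7 and 22.3% in one longer than that of dim-2. The share was 12.7% for hpo and 10.7% for dim-5. The longest run, that of set-2, held 325 of the 9866 annotated genes.

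Within 20 kb centered on each gene, annotated genes covered 86.9% of the bases around dim-2, 82.4% around dim-5, 81.3% around set-7, 78.25% around hpo and 63.3% around set-2. The median over protein-coding genes was 69.5%, and only set-2 fell below it. Around dim-5 the window touched 10 genes, a number that 0.75% of protein-coding genes exceeded, whereas the window of dim-2 touched 5. The genes dim-2, set-7 and set-2 are long and fill part of their own window. With the gene's own span left out, coverage was 80.8% for dim-5 (86.2% of genes lower), 81.7% for dim-2 (87.9% lower), 75.3% for hpo (73.9% lower), 71.9% for set-7 (65.9% lower) and 52.6% for set-2 (26.2% lower). The order depended on scale for set-2, which was lower than most genes in coverage at 20 kb and higher than 88.6% of them at 100 kb. It went the other way for set-7, higher than 81.3% of genes at 20 kb and than 34.2% at 100 kb.

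The genes next to each of the 5 are named here by NCU number alone, since the RefSeq table gives none of them a symbol. None of the 5 overlapped a neighbor, which held for 77.1% of protein-coding genes. The gene dim-5 was the most tightly enclosed, with 221 bp to its upstream neighbor NCU10110 (same strand) and 368 bp to its downstream neighbor NCU16819 (opposite strand, ends facing). Its upstream gap was shorter than that of 84.1% of protein-coding genes. Its downstream gap was longer than that of 59.7% of the 5362 genes whose end faces that of their downstream neighbor (median 172 bp). The gene dim-2 stood in a row of 3 genes on the plus strand, 264 bp after NCU02248 and 868 bp before NCU02246.

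By contrast, hpo, set-7 and set-2 each faced a gene transcribed away from them, as 55.2% of protein-coding genes do. The interval shared by the 2 starts was 1615 bp between hpo and NCU04018, 2088 bp between set-7 and NCU07495 and 3708 bp between set-2 and NCU00268. Among the 5366 protein-coding genes with such an upstream neighbor, the median gap was 760 bp, and 72.0%, 79.5% and 90.5% of these genes had a shorter one, a gap between a pair of such genes counting once for each. Downstream, hpo was followed on its own strand by NCU17116 after 840 bp. The ends of set-7 and NCU07497 faced each other over 515 bp, and those of set-2 and NCU00270 over 1137 bp. Of genes with such a downstream neighbor, 64.7% and 78.8% had a shorter gap. In NC12 all 10 of these neighbors are direct neighbors of the same genes.

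**Figure D2:**
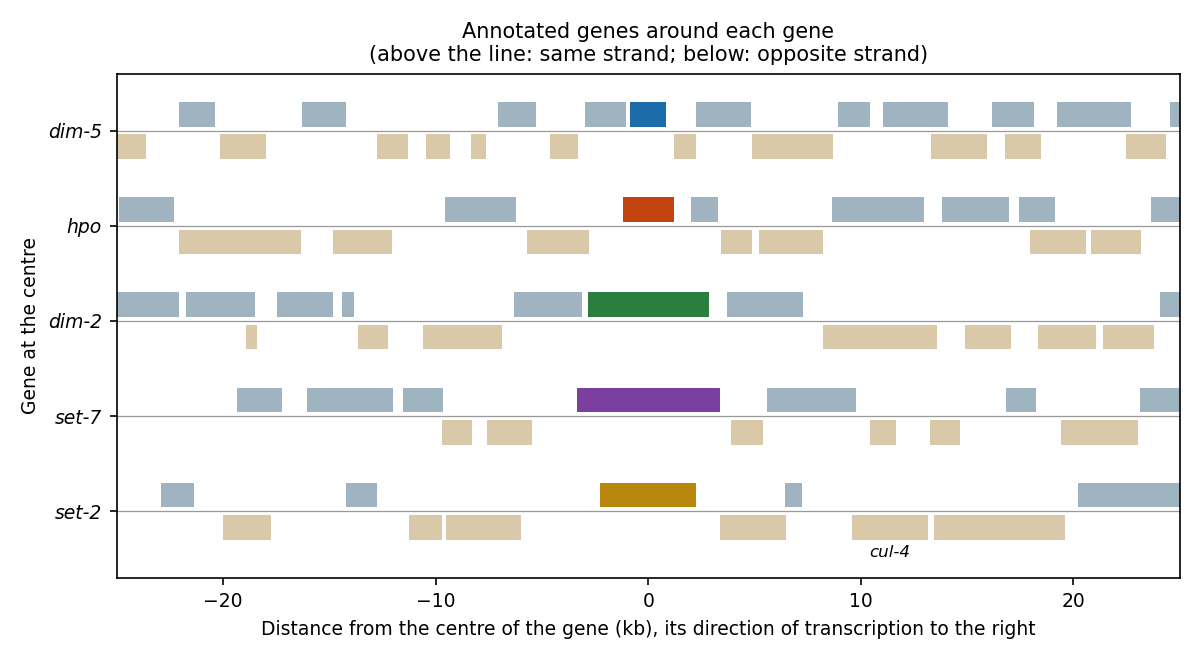
Annotated genes within 25 kb on either side of each of the 5 genes (x axis, kb from the gene's center, drawn so that it is transcribed to the right), with same-strand genes above the line and opposite-strand genes below it. The short gaps beside dim-5 (221 and 368 bp) and dim-2 (264 bp upstream), the 3708-bp gap upstream of set-2 and the nearby cul-4 can be seen.

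The gene models differed widely in length. Coding length, without the stop codon, was 798 bp for hpo (266 codons), 993 bp for dim-5 (331 codons), 2862 bp for set-2 (954 codons), 4362 bp for dim-2 (1454 codons) and 4833 bp for set-7 (1611 codons). The median of protein-coding genes was 1260 bp. So the reader HP1 and the H3K9 methyltransferase were shorter than most annotated products, with 72.7% and 63.5% of genes longer, and the DNA methyltransferase and SET-7 were among the longest, with 2.6% and 1.82% longer. For set-2, 10.1% were longer. The span from first to last annotated base followed a similar order and was 1685 bp for dim-5, 2384 bp for hpo, 4512 bp for set-2, 5687 bp for dim-2 and 6740 bp for set-7. From first to last coding base instead, dim-5 spanned 1081 bp and hpo 985 bp, and the share of genes with a shorter span went from 58.5% to 27.5% for hpo. By the annotated span, 122 of the 9730 protein-coding genes exceeded set-7.

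**Figure D3:**
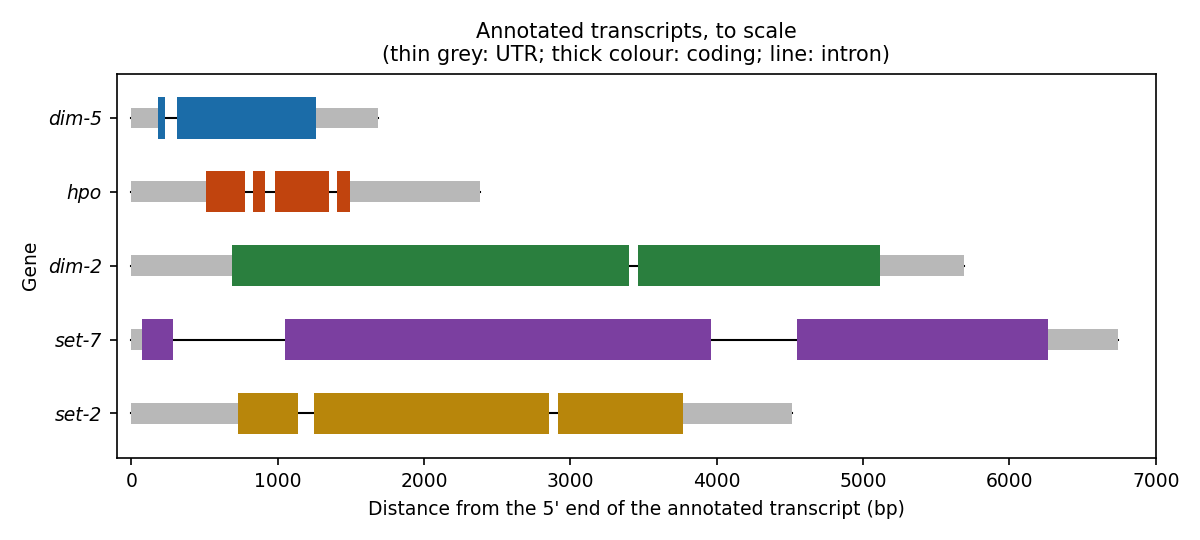
The annotated transcript of each gene drawn to scale from its 5′ end (x axis, bp), with untranslated regions in thin grey, coding sequence in thick color and introns as a line. The drawing shows the long introns of set-7 (765 and 588 bp) and the untranslated regions of hpo (507 and 892 bp), which together exceed its 798 bp of coding sequence.

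Each gene had a single annotated transcript, as did 90.8% of protein-coding genes. All 5 had at least 1 intron, and none had an intron in an untranslated region (UTR). Both UTRs were annotated for each. Taken jointly, these 4 properties (1 transcript, an intron, none in a UTR, both UTRs annotated) were shared by 45.5% of protein-coding genes, so the agreement among the 5 is that of a common kind of gene model. The genes dim-5 and dim-2 had 2 exons and 1 intron, set-7 and set-2 had 3 exons and 2 introns, and hpo had 4 exons and 3 introns. More introns than in hpo were annotated in 11.1% of protein-coding genes, and more than in set-7 or set-2 in 23.8%. Per kb of coding sequence, hpo had 3.76 introns and dim-2 0.229, against a median of 1.12.

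The introns of set-7 stood apart from the rest. Its first intron (414217 to 414981 of LG I) was 765 bp long and its second (410716 to 411303) 588 bp, whereas the other 7 introns of the 5 genes were between 58 and 113 bp. Among the 15528 introns inside coding sequence, the median was 74 bp and the quartiles were 62 and 108 bp. Of these introns, 51 were longer than the first of set-7 and 130 longer than the second. At least 1 coding intron of 588 bp or more was found in 127 genes, and at least 2 in 4 of the 4196 genes with 2 or more coding introns, namely set-7, stk-10 (NCU03200), NCU09917 and NCU17247. The last 3 were named after their values were seen. Introns made up 20.1% of the span of set-7, against 1.13% for dim-2, 3.95% for set-2, 5.04% for dim-5 and 7.72% for hpo. A larger share than that of set-7 was found for 14.2% of protein-coding genes. The summed intron length of set-7 (1353 bp) was exceeded by 42 protein-coding genes.

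**Figure D4:**
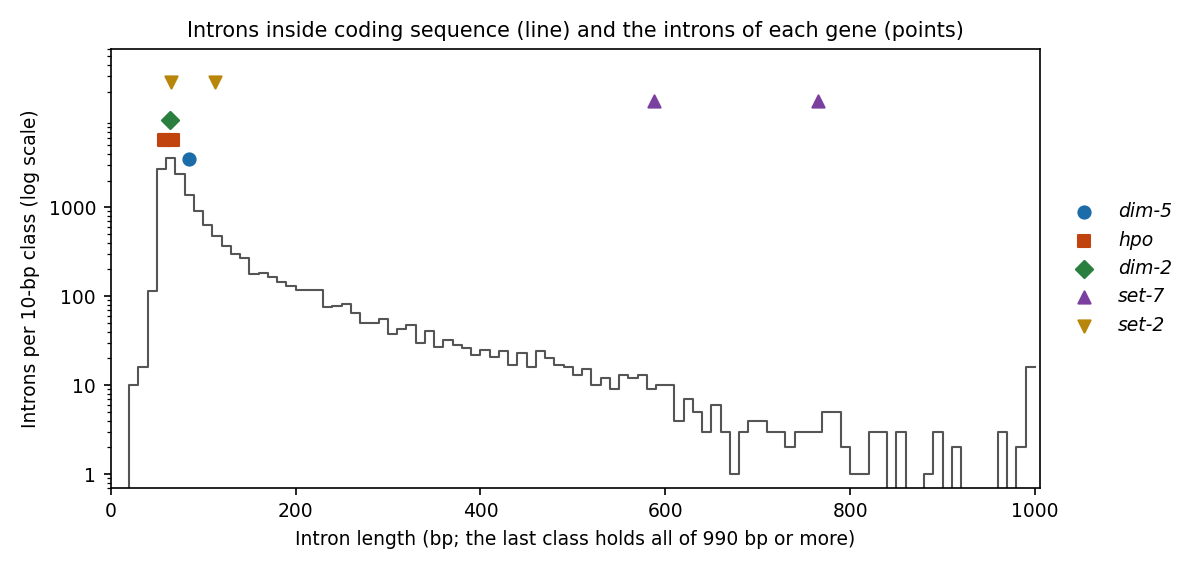
Lengths of the 15528 introns inside coding sequence (line, number per 10-bp class on a log scale) against intron length in bp (x axis), with the introns of each of the 5 genes as points whose height has no meaning. The points of set-7 lie at 588 and 765 bp, and all others between 58 and 113 bp, near the peak of the distribution.

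Where an intron cuts the coding sequence also differed. An intron is in phase 0 when it lies between codons, and 7 of the 9 introns of the 5 genes were, compared with 38.8% of all coding introns. The exceptions were the second intron of hpo (phase 2) and the first of set-2 (phase 1). Both introns of set-7 were in phase 0 and had a length divisible by 3, so that neither would shift the reading frame if it stayed in the RNA. Whether they contain a stop codon was not analysed, since no sequence was read. This combination was found for 13.1% of coding introns and for 12.2% of those of at least 588 bp, and in none of the other 7 introns. First introns lay near the start in dim-5, after 16 codons (4.83% of the coding sequence), and in set-7, after 70 codons (4.35%). The only intron of dim-2 came after 904 codons (62.2%), and the introns of set-2 after 137 and 671 complete codons (14.4% and 70.3%). In hpo they came after 89, 115 and 239 complete codons (33.5%, 43.5% and 89.8%).

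The 3′ UTRs were longer than the median of 280 bp in all 5 genes. They measured 423 bp in dim-5, 479 bp in set-7, 570 bp in dim-2, 743 bp in set-2 and 892 bp in hpo, and 31.1%, 25.4%, 18.8%, 10.8% and 6.84% of protein-coding genes had a longer one. That of hpo was longer than its coding sequence, as in 9.23% of protein-coding genes, and both UTRs together took 63.6% of its exon bases. The 5′ UTRs varied more widely, from 72 bp in set-7 and 181 bp in dim-5, under the median of 237 bp, to 507 bp in hpo, 688 bp in dim-2 and 726 bp in set-2. A longer 5′ UTR was annotated for 73.5%, 58.3%, 22.3%, 12.4% and 11.03% of protein-coding genes, respectively. Only in dim-2 was the 5′ UTR longer than the 3′ UTR. A gene with no annotated UTR counts as 0 bp in these ranks, and a 5′ UTR was annotated for 78.7% of protein-coding genes. Among those alone, 6.52% had a shorter one than set-7 and 25.6% a shorter one than dim-5. A 3′ UTR was annotated for 80.1% of protein-coding genes. Among these, 60.9% had a shorter one than dim-5, 68.2% than set-7, 76.4% than dim-2, 86.5% than set-2 and 91.4% than hpo.

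**Figure D5:**
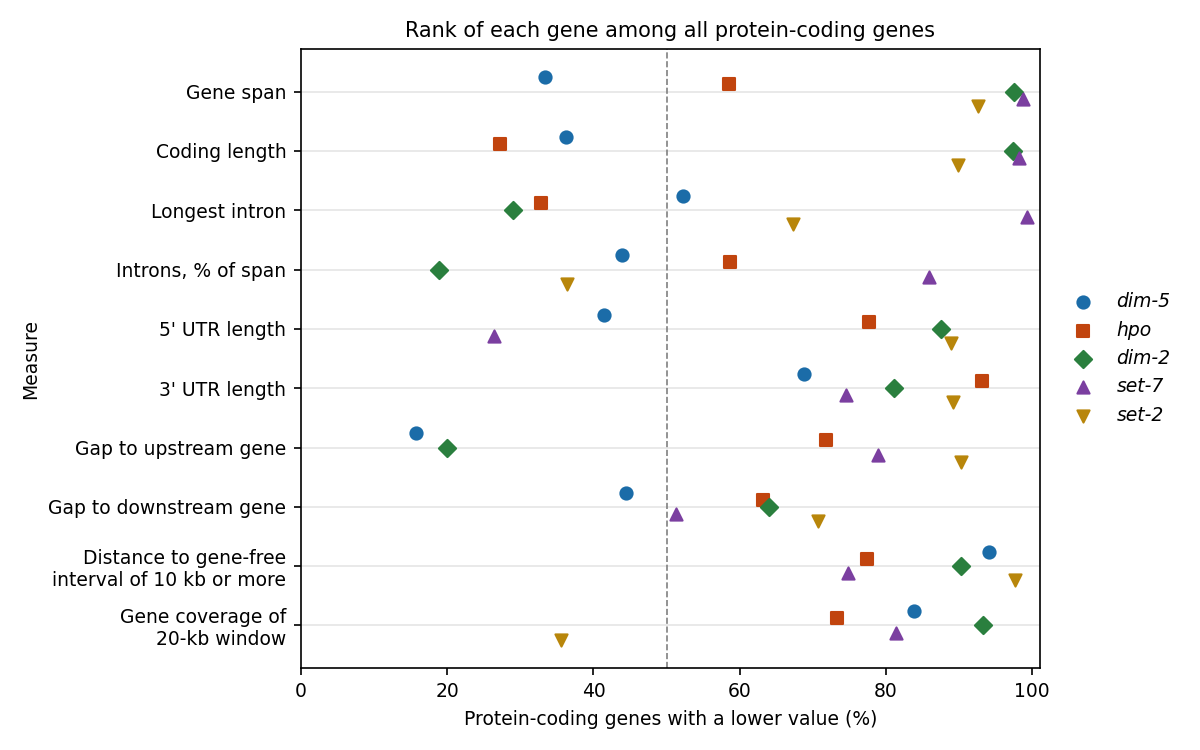
Share of protein-coding genes with a lower value than each of the 5 genes (x axis, %) for 10 measures of the annotation (y axis), with 1 symbol per gene and a dashed line at 50%. All 5 symbols are right of the line for the length of the 3′ UTR and for the distance to a gene-free interval, and they spread across the axis for coding length and the 5′ UTR.

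Other genes of these pathways were taken from a list of symbols, of which 22 genes had a RefSeq symbol and a place in nc14. These include dim-7, dim-8, dim-9 and cul-4, whose products form the complex that directs DIM-5 to chromatin, the histone deacetylase genes hda-1 to hda-4, dmm-1 and dmm-2, which limit the spread of heterochromatin, further set- genes, and genes of histones H3 and H4. Symbols of the list without a match, among them eed and suz12 of the Polycomb complex, are not described here. The median distance of the 22 genes to a gene-free interval was 91478 bp, between that of all protein-coding genes (56678 bp) and that of the 5 (208515 bp), and 17 of the 22 were above the median of all genes. The nearest was hH3 (NCU01635, 15780 bp) and the farthest cul-4 (NCU00272, 355802 bp), so none of the 22 lay within 10 kb. Their median coding length was 2115 bp and 17 of 22 exceeded the median of all genes, and their 3′ UTRs did so in 14 of 22. A single transcript was annotated for 20 of them, against 90.8% of all protein-coding genes. No intron was annotated in 6 of the 22, in none of the 5 and in 18.4% of all protein-coding genes. The longest intron among them was the 770 bp of hda-1 (NCU01525), a histone deacetylase gene, and no other gene of the 22 had an intron as long as the 588 bp of set-7. The share of the span in introns was highest in dim-9 (NCU01656), at 32.3%.

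Of the 5 genes, set-2 was the closest to another gene of the list. The cullin gene cul-4, of the complex that acts with DIM-5, ran from 3248301 to 3251897 of LG III (minus strand), 7316 bp from set-2 and with NCU00270 and NCU00271 between them. Of protein-coding genes, 1.41% lay as near to a gene of the list or to one of the 5. The next closest was dim-5, which had set-4 (NCU04389) 42.7 kb away with 14 genes in between, and 6.02% of genes lay as near. For set-7 and dim-2 the nearest, set-8 (NCU01973) and set-5 (NCU06119), were 1399 and 1446 kb away, and hpo had none on LG VI. As near as set-7 and dim-2 lay 77.7% and 79.1% of protein-coding genes, so these 2 were farther from such a gene than most. These distances depend on which genes the list holds, and contacts between the loci were not analysed here.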

How the data were processed

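The deposited file was the authors' annotation of nc14, whose values are start and end positions of exons and coding segments, 1-based and in bp. It has 0 columns of per-sample values. The study placed unassigned supercontigs on LG I and LG V with MseI contacts, and the sources used here do not state how the gene models were transferred. Per the labels, the processing notes name Bowtie2 2.3 and SAMtools, used on reads that were not analysed here. With Python 3.11.15, numpy 2.4.6, pandas 2.3.3, scipy 1.17.1 and matplotlib 3.10.9, a gene was taken as the span of all features with its NCU number, and the transcript with the most exon bases stood for it. Coding length leaves out the stop codon. Gene-free intervals of at least 10 kb lie between neighboring genes, chromosome ends left out, and unknown bases in them were not assessed. Symbols and NC12 neighbors came from RefSeq. Every measure was ranked over the 9730 protein-coding genes, and the steps were tested on simulated data. The text names the 5 genes, their neighbors, the genes that flank their nearest intervals and the extremes of the wider list. Genes and lists were chosen with earlier results of these data known. No sequencing depth or replicate enters these values.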

Additional observations from a re-analysis of the deposited data

How the results depend on the processing

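With gene-free intervals of at least 5 kb, of which there were 533, the nearest lay 113498 bp from dim-5, 32349 bp from hpo, 58157 bp from dim-2, 15966 bp from set-7 and 145456 bp from set-2, and 96.9%, 67.3%, 85.7%, 43.4% and 98.7% of protein-coding genes were nearer to one. With at least 20 kb (99 intervals), hpo was 263908 bp and set-2 789411 bp away, and in the same gene order 73.1%, 73.5%, 66.4%, 47.1% and 99.4% of genes were nearer. Distance above the median of all genes therefore held for dim-5, hpo, dim-2 and set-2 under all 3 minimums, and for set-7 at 10 kb alone. Ranks of gene coverage, in that order, were 85.8%, 89.6%, 93.8%, 52.9% and 52.0% of genes lower in 50-kb windows and 64.7%, 70.4%, 94.2%, 34.2% and 88.6% in 100-kb windows. With the gene's own span left out of the 20-kb window, an alternative chosen after seeing the data, they were 86.2% for dim-5, 87.9% for dim-2, 65.9% for set-7 and 26.2% for set-2. Against genes of the same LG alone, distance ranks were 97.2%, 71.5%, 96.0%, 70.0% and 89.6%, coverage ranks 79.96% for hpo, 94.7% for dim-2, 79.8% for set-7 and 38.7% for set-2, and ranks of the longest intron 34.2% for hpo and 63.3% for set-2. Measured from first to last coding base, the span was 1081 bp for dim-5 (32.5% of genes lower), 985 bp for hpo (27.5%), 4429 bp for dim-2 (97.0%), 6189 bp for set-7 (99.1%) and 3043 bp for set-2 (89.5%). Of 285 values under all alternatives, 192 moved by less than 1.5 times or stayed inside the 95% binomial interval of their share, and 93 moved further. The transcript with the longest coding length and the first by number gave 70 values each, with 67 each among the 192. Each of the 5 genes has 1 transcript, so there only ranks could move. For a full count of genes the interval is a mere cut-off, and small shifts such as 93.2% to 93.8% (coverage of dim-2, 50-kb window) passed it. Intervals ended by protein-coding genes alone moved none. The list by product description was not run, since the RefSeq table used here holds no product descriptions. No paired analysis was possible because no value belongs to a sample, and leaving out a replicate could not be done for the same reason.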
